A study of Mus musculus with 12 samples.

Results

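The proteasome subunits and their assembly factors were followed in macrophages that had been grown from mouse bone marrow with the growth factor M-CSF (BMDM). Members were the genes whose symbol begins with Psma, Psmb, Psmc, Psmd, Psme, Psmf or Psmg and a digit, without pseudogenes and without the immunoproteasome subunits Psmb8, Psmb9 and Psmb10. They were 47 of the 43280 genes in the table, and 46 of them were among the 12086 genes tested. Psmb11, the catalytic subunit of thymic epithelium, was left untested, with 0 to 2 reads in any library. RNA of cells on the C57BL6 background, either wild type (wt) or Treml4-/- (a knockout of the myeloid receptor gene Treml4), was sequenced in 6 conditions with 2 biological replicates each. The cells of each genotype were unstimulated with PBS as the vehicle (M0), or had received 100 ng/ml of lipopolysaccharide (LPS), a component of the bacterial outer membrane, for either 8 h or 12 h. How long the M0 cells had been with the vehicle, the age of the mice, and whether the 2 replicates of a condition came from separate animals or from pooled marrow are not stated in the labels, so p-values measure the spread between these samples only.

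The proteasome is the protease that degrades proteins tagged with ubiquitin. Its 20S core is a stack of alpha rings, which gate the entry, and beta rings, of which Psmb6, Psmb5 and Psmb7 carry the active sites. The 19S particle binds ubiquitin and unfolds substrates with its ATPases, while the Psme genes encode other caps of the core. In cells exposed to interferon, Psmb9, Psmb8 and Psmb10 take the place of Psmb6, Psmb5 and Psmb7 in new particles, which are known for making peptides for MHC class I presentation.

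RefSeq promoter windows (GRCm38.p6, from 250 bases before to 50 after a start site) were found for 39 of the 47 members. A 100-base stretch is shown for 5 of them: a pair of catalytic beta subunits, a pair of caps and a 19S chaperone. After LPS their RNA did not move alike when reads were scaled to the library total. With median-of-ratios scaling, described below, all 5 rose at 8 h and at 12 h. In the first 4, capitals mark TGACNNNGC, the core of the antioxidant response element that transcription factors such as Nfe2l1, an activator of proteasome genes, are known to bind; in Psme1 they mark GGGANNNCC, an NF-kB-like motif. Both strands were searched, and in Psme4 and Psme1 the match was on the opposite strand.
Psmb6 (chr11:70525257-70525356, plus strand): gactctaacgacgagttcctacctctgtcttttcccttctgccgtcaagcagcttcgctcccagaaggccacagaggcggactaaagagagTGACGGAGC
Psmb5 (chr14:54617996-54618095, minus strand): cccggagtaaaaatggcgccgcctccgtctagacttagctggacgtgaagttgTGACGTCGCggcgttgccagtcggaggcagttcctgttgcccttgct
Psme4 (chr11:30771677-30771776, plus strand): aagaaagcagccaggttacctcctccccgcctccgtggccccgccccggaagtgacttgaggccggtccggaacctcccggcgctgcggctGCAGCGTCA
Psmd9 (chr5:123228090-123228189, plus strand): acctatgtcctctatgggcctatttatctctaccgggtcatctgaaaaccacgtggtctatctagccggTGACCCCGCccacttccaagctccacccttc
Psme1 (chr14:55578394-55578493, plus strand): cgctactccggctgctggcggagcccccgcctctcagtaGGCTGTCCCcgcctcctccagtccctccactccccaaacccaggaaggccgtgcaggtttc
In the GENCODE annotation of the same build, the Psmb6 stretch lay outside any gene. The Psmb5 and Psme4 stretches ran into the first bases of their own genes, with 27 and 51 exonic bases, and the Psmd9 stretch lay inside the annotated Psmd9 gene without an exonic base, and also inside Gm26745 on the opposite strand. The Psme1 stretch was exonic over all 100 bases, since the annotated Psme1 gene starts further upstream. The antioxidant response core was in 6 of the 42 windows of these members (14.29%), those of Psmb5, Psmb6, Psmc6, Psmd12, Psmd9 and Psme4, and in 12.39% of the 32851 RefSeq windows. A match of letters describes the window only.

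Between 48008751 and 58500792 reads were counted per library, and 1 read was worth 0.0171 to 0.0208 CPM, the reads of a gene scaled to a fixed library total. Treml4 had 198 to 663 reads in the 6 wt libraries and 0 in the 6 Treml4-/- libraries. Of 8 macrophage markers, 7 were in the table and had at least 28.9 CPM in every library. They summed to 18874.8 to 25804.5 CPM at M0, 8739.1 to 11633.2 CPM at 8 h and 8397.8 to 9513.7 CPM at 12 h. Single markers went both ways, as Csf1r was lower and Fcgr1 higher in every LPS library than in any M0 library. The 4 T cell markers had at most 0.0407 CPM and the 4 erythroid markers at most 0.206 CPM. The 5 markers of neutrophils and their granule-forming precursors, such as Mpo and Ltf, summed to 15.7 to 55.2 CPM at M0, 11.4 to 20.5 CPM at 8 h and 4.34 to 4.85 CPM at 12 h. The 4 B cell markers summed to 4.39 to 6.48 CPM at M0 and at most 0.686 CPM after LPS, and the 3 dendritic cell markers to 0.551 to 0.835 CPM at M0 and 2.53 to 7.59 CPM after LPS. Stromal markers summed to at most 2.39 CPM. The part of these markers in the results was not tested, and in bulk RNA fewer cells of a type and less RNA per cell cannot be told apart.

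After LPS the proteasome genes split into groups that moved in opposite directions. RNA of the PA28 caps Psme1 and Psme2, of the PA200 cap Psme4 and of most alpha ring subunits was higher. The chaperones Psmg1, Psmg2, Psmg3 and Psmg4, which build the alpha ring, were lower. Beta ring and 19S genes changed less. Psmg3 lay near the typical gene on CPM, with log2 fold changes of -0.99 at 8 h and -0.94 at 12 h. The medians of all genes were -0.72 and -0.76. At 8 h, 21 of 46 members rose and 19 fell (limma, Benjamini-Hochberg adjusted p under 0.05), where 21.1% of all 12086 genes rose and 68.4% fell. At 12 h, 19 rose and 18 fell, beside 21.0% and 68.5% of all genes. By the 1.4-fold minimum of the study as well, 9 rose and 10 fell at 8 h (17.1% and 59.8% of all genes), and 10 rose and 10 fell at 12 h (16.3% and 60.3%). Without overlap between the 4 LPS and the 4 M0 libraries, 19 members were higher and 17 lower at 8 h (19.2% and 64.1% of all genes), and 18 and 17 at 12 h (20.0% and 66.6%). The members that fell include Psma8 and Psmc3ip, which reached the 1 CPM of the filter on low values in M0 libraries alone and so entered the test only through the group where they were high; nothing is drawn from their calls.

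These directions depend on the scale. On CPM, which divides by the library total, the median log2 fold change of all genes was -0.72 at 8 h and -0.76 at 12 h, and that of the members was -0.085 and 0.034. Median-of-ratios scaling, which centres the typical gene, moved the median of all genes up by 0.69 and 0.72; on it 38 members rose and 7 fell at 8 h, and 39 rose and 6 fell at 12 h, beside 39.4% up and 42.4% down of all genes at 8 h and 41.6% and 43.5% at 12 h. Members lay above the median of all genes in 40 of 46 cases at 8 h and in 39 of 46 at 12 h. All 21 and all 19 members that rose on CPM also rose on this scale, while many of the decreases turned into increases.

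**Figure D1:**
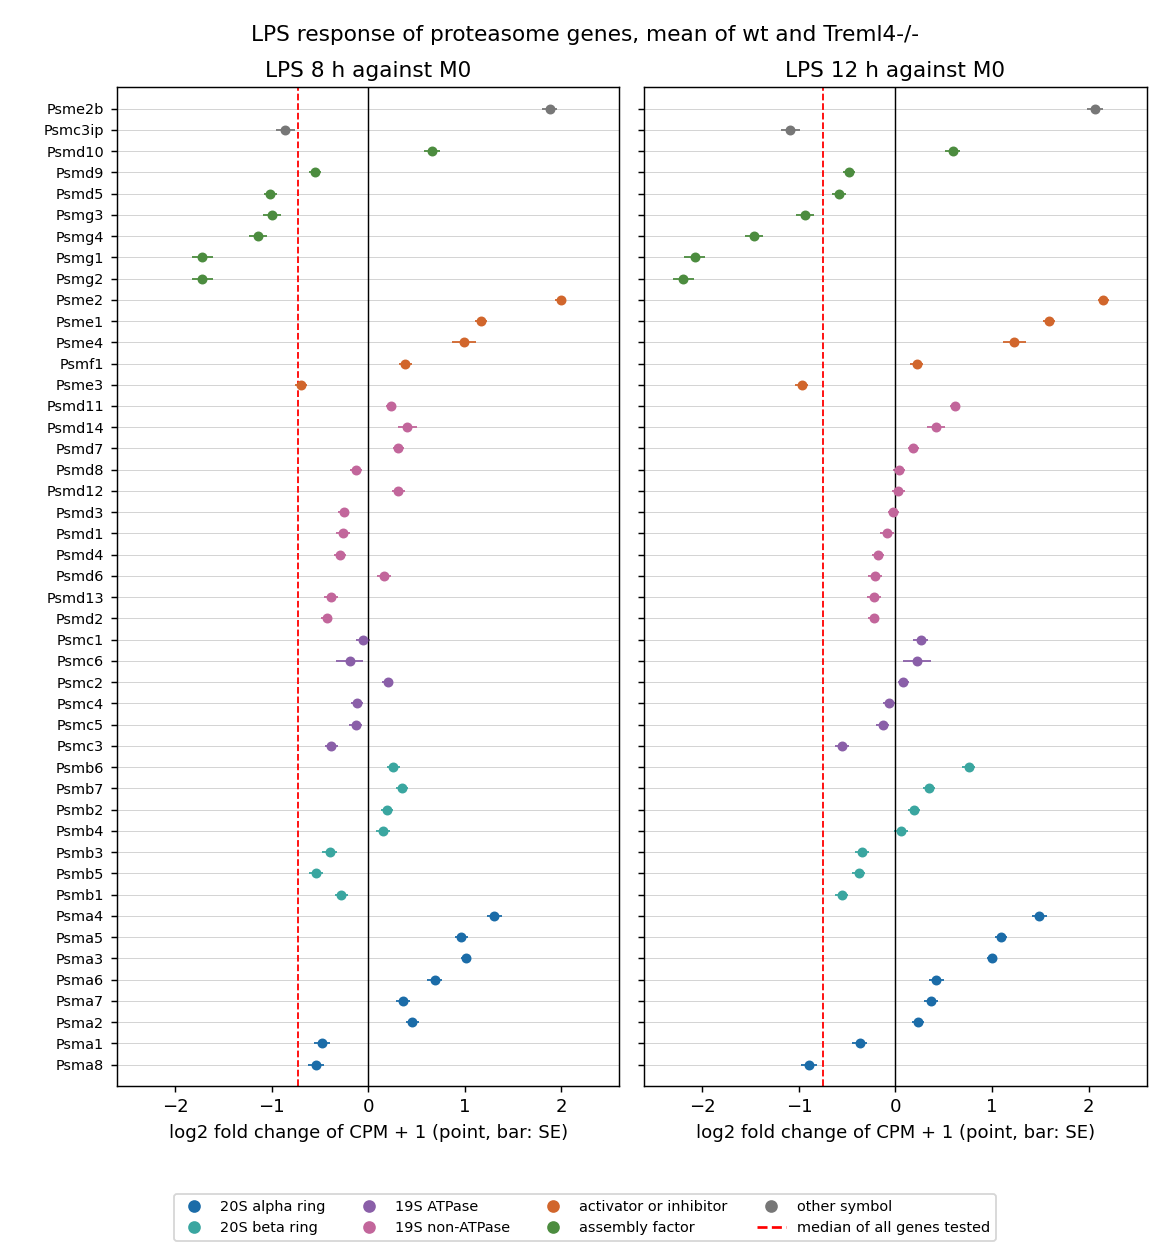
Log2 fold change of CPM + 1 (x axis; bars are standard errors) of the 46 tested members, 4 LPS against 4 M0 libraries, at 8 h (left) and 12 h (right), grouped by role; the dashed line is the median of all 12086 genes, -0.72 and -0.76. Psme2, Psme2b, Psme1 and Psma4 lie far to the right and the 4 Psmg chaperones to the left, and points between the dashed line and 0, such as Psmb5 and Psmc3, lie above 0 with median-of-ratios scaling, except Psma8 at 8 h.

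Of the 8 alpha ring genes, 6 rose and 2 fell at each time, or 7 and 1 with median-of-ratios scaling. Psma8, from whose calls nothing is drawn, is among those that fell. Of all genes, 21.1% rose and 68.4% fell at 8 h on CPM, and 21.0% and 68.5% at 12 h. With median-of-ratios scaling 39.4% rose and 42.4% fell at 8 h, and 41.6% and 43.5% at 12 h. The summed alpha ring RNA was 628 to 736 CPM in the 4 M0 libraries, 1079 to 1182 CPM at 8 h and 1082 to 1183 CPM at 12 h, with no overlap between M0 and LPS. Psma4, which showed the largest rise of the ring, had 92.0 and 73.7 CPM in wt and 82.8 and 93.6 CPM in Treml4-/- libraries at M0. At 8 h it had 204 and 215 CPM in wt and 211 and 219 CPM in Treml4-/- libraries, and at 12 h 245 and 262 CPM in wt and 232 and 227 CPM in Treml4-/-. Every LPS library was thus above every M0 library, and the log2 fold change was 1.31 ± 0.075 (SE) at 8 h and 1.49 ± 0.075 at 12 h (adjusted p = 1.08e-08 and 3.24e-09; 4 libraries against 4, limma as in all contrasts here). Exons of AY074887 on the opposite strand overlap Psma4 by 114 bases, and whether counting used strand is not given. Psma5 and Psma3 rose by 2.13-fold and 2.00-fold at 12 h, and Psma6, Psma7 and Psma2 by 1.17-fold to 1.34-fold.

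Psma1 was the exception among the subunits of the common ring: its log2 fold change was -0.47 ± 0.082 at 8 h and -0.37 ± 0.082 at 12 h on CPM, but 0.32 and 0.47 with median-of-ratios scaling. Psma8, an alpha subunit of the testis, had few reads. It had 0.656 and 0.846 CPM in wt and 1.53 and 1.78 CPM in Treml4-/- libraries at M0, which is 34 to 95 reads, and 4 to 13 reads at 12 h. Values were 0.242 and 0.316 CPM in wt and 0.889 and 0.549 CPM in Treml4-/- libraries at 8 h, and 0.0959 and 0.0794 CPM in wt and 0.271 and 0.191 CPM in Treml4-/- at 12 h, so that the 12 h libraries were below all M0 libraries and the 8 h libraries overlapped them. It reached 1 CPM only in the Treml4-/- M0 libraries, through which alone it entered the test, so its values are given as a description.

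In the beta ring 3 of 7 tested genes rose and 3 fell at each time on CPM, where all 7 rose with median-of-ratios scaling. Of all genes, 21.1% rose and 68.4% fell at 8 h on CPM, and 21.0% and 68.5% at 12 h. With median-of-ratios scaling 39.4% rose at 8 h and 41.6% at 12 h. On CPM the catalytic subunits did not move together. Psmb6, the caspase-like subunit, and Psmb7, the trypsin-like subunit, rose, and Psmb5, the chymotrypsin-like subunit, fell on CPM and rose with median-of-ratios scaling (0.25 at 8 h and 0.46 at 12 h). Summed beta ring RNA was 825 to 928 CPM at M0, 786 to 942 CPM at 8 h and 914 to 949 CPM at 12 h, ranges that overlap. Psmb6 had 158 and 162 CPM in wt and 190.0 and 169 CPM in Treml4-/- libraries at M0, 218 and 205 CPM in wt and 209.8 and 181 CPM in Treml4-/- at 8 h, and 294 and 281 CPM in wt and 275 and 297 CPM in Treml4-/- at 12 h. The 8 h libraries overlapped M0, while the 12 h libraries stood above all others, with log2 fold changes of 0.26 ± 0.067 and 0.76 ± 0.067 (adjusted p = 0.00315 and 4.89e-07).

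Psmb7 had 108 and 95.0 CPM in wt and 112 and 110.5 CPM in Treml4-/- libraries at M0, 143 and 129 CPM in wt and 142 and 128 CPM in Treml4-/- at 8 h, and 129.8 and 135 CPM in wt and 138 and 136 CPM in Treml4-/- at 12 h. LPS libraries were above M0 at both times, with log2 changes of 0.35 ± 0.064 and 0.34 ± 0.064 (adjusted p = 2.74e-04 and 2.96e-04); exons of Nek6 on the opposite strand overlap Psmb7 by 405 bases. For Psmb5 the values were 113 and 119.6 CPM in wt and 130.4 and 125 CPM in Treml4-/- libraries at M0, 90.6 and 81.1 CPM in wt and 89.4 and 74.0 CPM in Treml4-/- at 8 h, and 93.9 and 96.7 CPM in wt and 90.7 and 92.5 CPM in Treml4-/- at 12 h. All LPS libraries of Psmb5 were below all M0 libraries on CPM, with log2 fold changes of -0.54 ± 0.070 and -0.38 ± 0.070 (adjusted p = 1.49e-05 and 2.77e-04).

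Psmb1, a structural beta subunit, had the most negative change of the ring at 12 h. Its values were 141 and 133 CPM in wt and 142 and 141 CPM in Treml4-/- libraries at M0, 121 and 113 CPM in wt and 124 and 102 CPM in Treml4-/- at 8 h, and 91.2 and 96.7 CPM in wt and 95.1 and 94.8 CPM in Treml4-/- at 12 h, lower at each time with no overlap between the times. The log2 fold change was -0.55 ± 0.068 at 12 h on CPM (adjusted p = 9.02e-06) and 0.29 with median-of-ratios scaling. Psmb2 rose slightly, Psmb3 fell on CPM and rose on the other scale, and Psmb4 had a log2 fold change of 0.059 ± 0.071 at 12 h (adjusted p = 0.435).

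The interferon-inducible partners of the catalytic subunits rose more than the subunits they replace. Psmb9, Psmb10 and Psmb8 had log2 fold changes of 2.18 ± 0.067, 1.99 ± 0.067 and 1.49 ± 0.071 at 12 h (adjusted p = 6.81e-11, 1.34e-10 and 2.16e-09). To compare 2 genes, CPM per kilobase of exon (RPKM) was used, and the immunoproteasome share was the RPKM of the inducible gene in percent of the sum of the pair. Psmb8 made up 24.8% to 26.1% of the Psmb8 and Psmb5 sum at M0, 53.2% to 57.8% at 8 h and 54.4% to 58.5% at 12 h. The Psmb9 share of the Psmb9 and Psmb6 sum went from 9.72% to 10.7% at M0 up to 26.7% to 29.2% at 8 h and was 21.99% to 27.04% at 12 h.

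Psmb10 made up 58.2% to 65.8% of its sum with Psmb7 at M0. Its share was 79.7% to 82.6% at 8 h and 81.1% to 84.3% at 12 h. In each of the 3 pairs the M0 and LPS libraries did not overlap (exact two-sided permutation test of 4 against 4 libraries, p = 0.0286, the smallest this design can give, and 0.0429 adjusted over the 9 tests made). Between 8 h and 12 h no share differed past the threshold, the nearest being that of Psmb9, with a difference of -4.36 percentage points (exact permutation p = 0.0571, adjusted p = 0.0734). The ratio within a library does not depend on the library scaling. Its level does depend on the annotated exon lengths. These are 3381 bases for Psmb8 and 899 for Psmb5, 3660 for Psmb9 and 1872 for Psmb6, and 1705 for Psmb10 and 3421 for Psmb7. In CPM, without the lengths, Psmb10 was below Psmb7 in every M0 library, at 76.6 to 90.9 against 95.0 to 112 CPM. Psmb8 was above Psmb5 in each of them. For Psmb10 with Psmb7 and Psmb8 with Psmb5, which gene is the larger at M0 thus rests on the lengths. Psmb9 was below Psmb6 in every M0 library with or without them, at 35 to 40 against 158 to 190 CPM. Exons of Gm20496 and Tap1 on the opposite strand overlap Psmb8 and Psmb9.

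**Figure D2:**
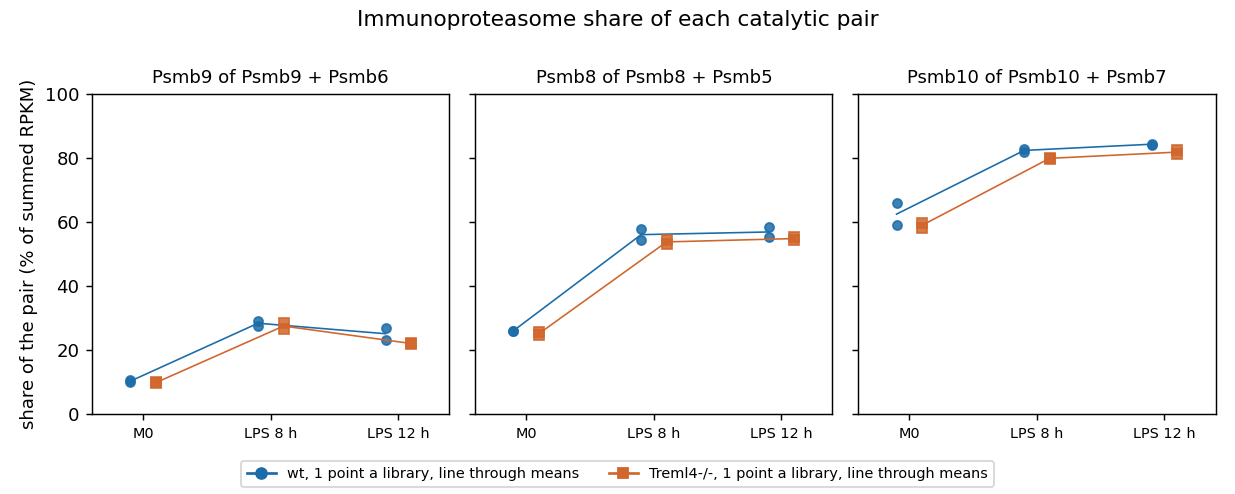
Share of each inducible catalytic subunit in the summed RPKM of its pair (y axis, percent) at M0 and after LPS (x axis), 1 point per library, wt as circles and Treml4-/- as squares. The Psmb8 share lies near 25% at M0 and above 53% after LPS, and the mean Psmb9 share is lower at 12 h than at 8 h in both genotypes, a difference that missed the threshold.

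The 19S particle moved little on CPM. Of its 6 ATPases 1 rose and 1 fell at each time. Of 11 non-ATPase subunits 5 rose and 5 fell at 8 h, and 3 rose and 4 fell at 12 h. Of all genes, 21.1% rose and 68.4% fell at 8 h, and 21.0% and 68.5% at 12 h. With median-of-ratios scaling all 17 rose at both times, beside 39.4% of all genes at 8 h and 41.6% at 12 h. Summed ATPase RNA was 612 to 698 CPM at M0, 582 to 645 CPM at 8 h and 601 to 667 CPM at 12 h, ranges that overlap. Summed non-ATPase RNA was 1596 to 1755 CPM at M0, 1422 to 1563 CPM at 8 h and 1597 to 1708 CPM at 12 h, so that only the 8 h libraries were below all M0 libraries.

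Psmc1, an ATPase whose tail opens the core gate, had 158 and 135 CPM in wt and 152 and 147 CPM in Treml4-/- libraries at M0, 144 and 123 CPM in wt and 156 and 149 CPM in Treml4-/- at 8 h, and 175 and 154 CPM in wt and 191 and 191 CPM in Treml4-/- at 12 h. Its libraries overlapped between times, and its log2 fold change was -0.052 ± 0.074 at 8 h (adjusted p = 0.514) and 0.26 ± 0.074 at 12 h (adjusted p = 0.006). Psmc3, another ATPase, had 170.4 and 160.3 CPM in wt and 192 and 177 CPM in Treml4-/- libraries at M0, 149 and 125 CPM in wt and 141 and 122 CPM in Treml4-/- at 8 h, and 115 and 114 CPM in wt and 121 and 123 CPM in Treml4-/- at 12 h. On CPM all LPS libraries were below M0, with log2 fold changes of -0.38 ± 0.072 and -0.56 ± 0.072 (adjusted p = 3.49e-04 and 1.44e-05), but of 0.41 and 0.29 with median-of-ratios scaling; exons of Slc39a13 on the opposite strand overlap Psmc3 by 215 bases.

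Psmd11, a lid subunit that holds the 19S particle on the core, rose most among the non-ATPases at 12 h. It had 89.0 and 84.0 CPM in wt and 95.8 and 94.0 CPM in Treml4-/- libraries at M0, 105 and 106 CPM in wt and 112 and 106 CPM in Treml4-/- at 8 h, and 135 and 134 CPM in wt and 146 and 145 CPM in Treml4-/- at 12 h. The 3 times did not overlap, with log2 fold changes of 0.24 ± 0.052 and 0.62 ± 0.052 (adjusted p = 9.26e-04 and 2.81e-07). Psmd14, the deubiquitinase of the lid, also rose, with a log2 fold change of 0.42 ± 0.096 at 12 h. Psmd2, the large scaffold of the base, had 446 and 448 CPM in wt and 488 and 461 CPM in Treml4-/- libraries at M0, 359 and 340.4 CPM in wt and 349.6 and 319 CPM in Treml4-/- at 8 h, and 380.2 and 385 CPM in wt and 399 and 412 CPM in Treml4-/- at 12 h. Psmd2 was lower than M0 in every LPS library on CPM, with log2 fold changes of -0.43 ± 0.054 and -0.23 ± 0.054 (adjusted p = 1.25e-05 and 0.00204), and was 0.37 and 0.62 with median-of-ratios scaling.

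Among the caps, 4 of 5 genes rose at each time, beside 21.1% of all genes at 8 h and 21.0% at 12 h. The summed RNA of the 5 was 518 to 542 CPM at M0, 1211 to 1375 CPM at 8 h and 1437 to 1595 CPM at 12 h. Psme2, the beta chain of the cytosolic PA28 ring, had 164 and 162 CPM in wt and 161 and 167 CPM in Treml4-/- libraries at M0, 689.6 and 706 CPM in wt and 644 and 587 CPM in Treml4-/- at 8 h, and 741 and 775 CPM in wt and 705 and 710.0 CPM in Treml4-/- at 12 h. No LPS library overlapped M0, and the log2 fold change of 1.99 ± 0.053 at 8 h and 2.15 ± 0.053 at 12 h (adjusted p = 2.02e-11 and 1.20e-11) was the largest of all members. Psme1, its alpha chain, which neighbours Psme2 on chromosome 14, had 154 and 168 CPM in wt and 169.7 and 164 CPM in Treml4-/- libraries at M0, 390.2 and 413 CPM in wt and 353 and 326 CPM in Treml4-/- at 8 h, and 502 and 545 CPM in wt and 458 and 477 CPM in Treml4-/- at 12 h. The 3 times were separate for Psme1, with log2 fold changes of 1.17 ± 0.059 and 1.59 ± 0.059 (adjusted p = 3.41e-09 and 2.69e-10).

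The third PA28 gene went the other way. Psme3, which encodes the nuclear PA28 gamma ring, had 82.2 and 88.6 CPM in wt and 86.9 and 86.3 CPM in Treml4-/- libraries at M0, 53.6 and 56.8 CPM in wt and 53.9 and 47.3 CPM in Treml4-/- at 8 h, and 41.6 and 43.8 CPM in wt and 44.0 and 43.9 CPM in Treml4-/- at 12 h. Its 3 times did not overlap on CPM, with log2 fold changes of -0.69 ± 0.062 and -0.97 ± 0.062 (adjusted p = 5.90e-07 and 2.66e-08); with median-of-ratios scaling they were 0.094 and -0.14, neither past the threshold. Psme4, which encodes the PA200 cap, had 80.8 and 60.8 CPM in wt and 77.1 and 84.4 CPM in Treml4-/- libraries at M0, 109 and 149.7 CPM in wt and 156 and 201 CPM in Treml4-/- at 8 h, and 175 and 186 CPM in wt and 184 and 168 CPM in Treml4-/- at 12 h. Every LPS library of Psme4 was above M0, but the 8 h libraries spread widely, and the log2 fold changes of 0.99 ± 0.12 and 1.23 ± 0.12 (adjusted p = 9.73e-06 and 1.35e-06) had a larger error than those of the other caps. Psmf1, the proteasome inhibitor PI31, had 37.5 and 38.4 CPM in wt and 42.0 and 39.7 CPM in Treml4-/- libraries at M0, 55.2 and 48.9 CPM in wt and 54.0 and 49.1 CPM in Treml4-/- at 8 h, and 46.9 and 44.6 CPM in wt and 46.0 and 46.5 CPM in Treml4-/- at 12 h. It was above M0 at both times, with log2 changes of 0.39 ± 0.064 and 0.22 ± 0.064 (adjusted p = 1.27e-04 and 0.00697).

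**Figure D3:**
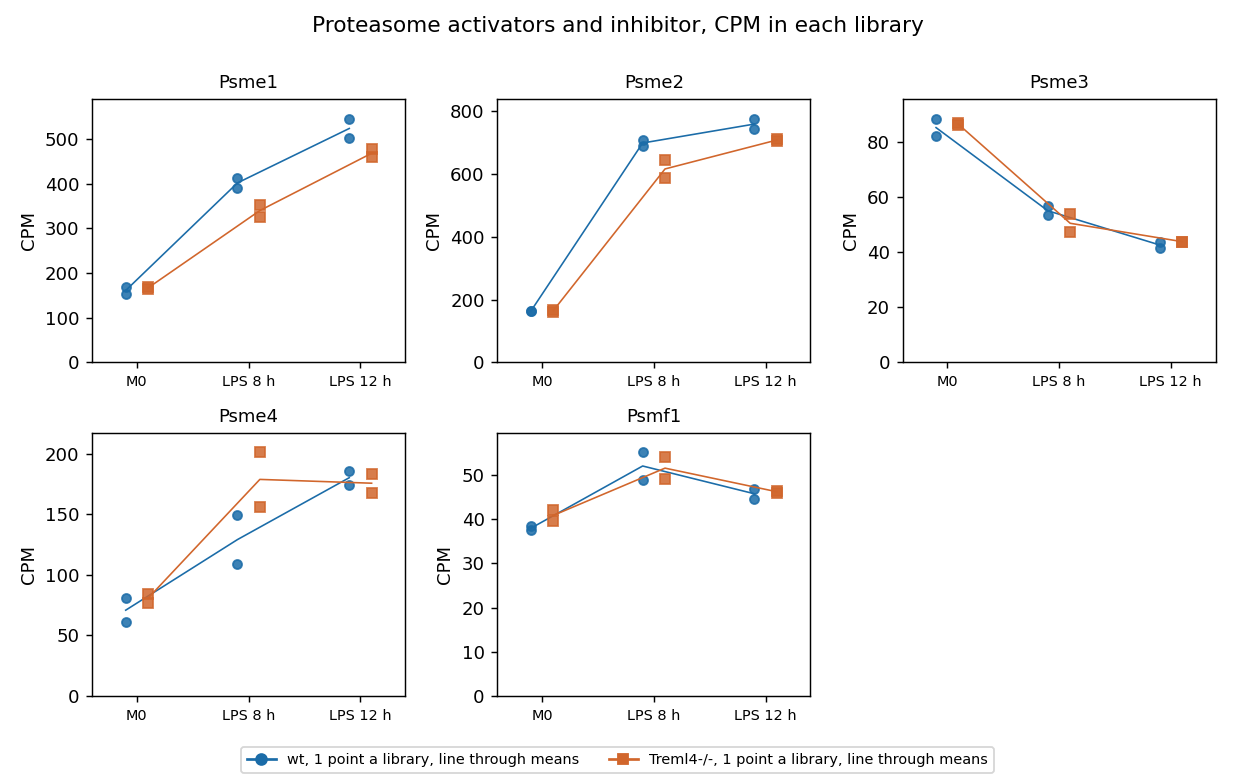
CPM (y axis, from 0) of the 4 activator genes and the inhibitor Psmf1 at M0 and after LPS (x axis), 1 point per library, with lines through the means of each genotype. Psme1, Psme2 and Psme4 are higher in all LPS libraries than in any M0 library, and Psme3 is lower on this scale but not past the threshold with median-of-ratios scaling.

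Assembly factors were the group with the most decreases on CPM, where 68.4% of all genes fell at 8 h and 68.5% at 12 h. As most genes fell on this scale, the count alone is not read as particular to assembly factors. With median-of-ratios scaling 42.4% of all genes fell at 8 h and 43.5% at 12 h. Of 7, only Psmd10 rose, and 6 fell at both times on CPM; with median-of-ratios scaling Psmg1, Psmg2, Psmg3 and Psmg4 still fell at both times, Psmd5 fell at 8 h alone, and Psmd9 rose. With quantile normalization Psmg1 and Psmg2 fell at both times and Psmg4 at 12 h, while the calls of Psmg3 at both times and of Psmg4 at 8 h were lost. Psmg2, which pairs with Psmg1 to seed the alpha ring, had 10.9 and 8.62 CPM in wt and 10.4 and 9.58 CPM in Treml4-/- libraries at M0, 2.30 and 1.86 CPM in wt and 2.84 and 2.23 CPM in Treml4-/- at 8 h, and 1.11 and 1.37 CPM in wt and 1.71 and 1.28 CPM in Treml4-/- at 12 h. The 3 times did not overlap, and the log2 fold change was -1.72 ± 0.11 at 8 h and -2.20 ± 0.11 at 12 h (adjusted p = 2.26e-08 and 2.54e-09), or -1.05 and -1.53 with median-of-ratios scaling. Its partner Psmg1 had 9.93 to 10.8 CPM at M0, 1.78 to 3.01 CPM at 8 h and 1.52 to 1.85 CPM at 12 h, with log2 fold changes of -1.72 ± 0.11 and -2.08 ± 0.11. Psmg3 and Psmg4, which form the second chaperone pair, had log2 fold changes of -0.94 ± 0.093 and -1.46 ± 0.090 at 12 h. With median-of-ratios scaling these were -0.24 and -0.75, and that of Psmg3 at 8 h was -0.33.

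The Psmg genes were low to begin with, at 6.42 to 10.9 CPM at M0, where the pseudocount of 1 CPM makes fold changes smaller. The 19S chaperones differed among themselves. Psmd10 (gankyrin) had 25.4 and 21.6 CPM in wt and 22.1 and 25.2 CPM in Treml4-/- libraries at M0, 35.6 and 34.8 CPM in wt and 39.1 and 41.9 CPM in Treml4-/- at 8 h, and 34.0 and 36.0 CPM in wt and 39.2 and 34.7 CPM in Treml4-/- at 12 h, with all LPS libraries above M0. Its log2 fold changes were 0.66 ± 0.078 and 0.59 ± 0.078 (adjusted p = 6.68e-06 and 1.73e-05). Psmd5 had log2 fold changes of -1.01 ± 0.070 at 8 h and -0.58 ± 0.070 at 12 h, the latter 0.25 with median-of-ratios scaling. Pomp, the maturation factor of the 20S core and no member by its symbol, rose slightly, by 0.15 ± 0.056 at 8 h and 0.20 ± 0.056 at 12 h (adjusted p = 0.0257 and 0.00625). The 8 h call was lost without the first wt library at 8 h (0.13), the first Treml4-/- library at 8 h (0.11) or either Treml4-/- library at M0 (0.15 and 0.15).

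**Figure D4:**
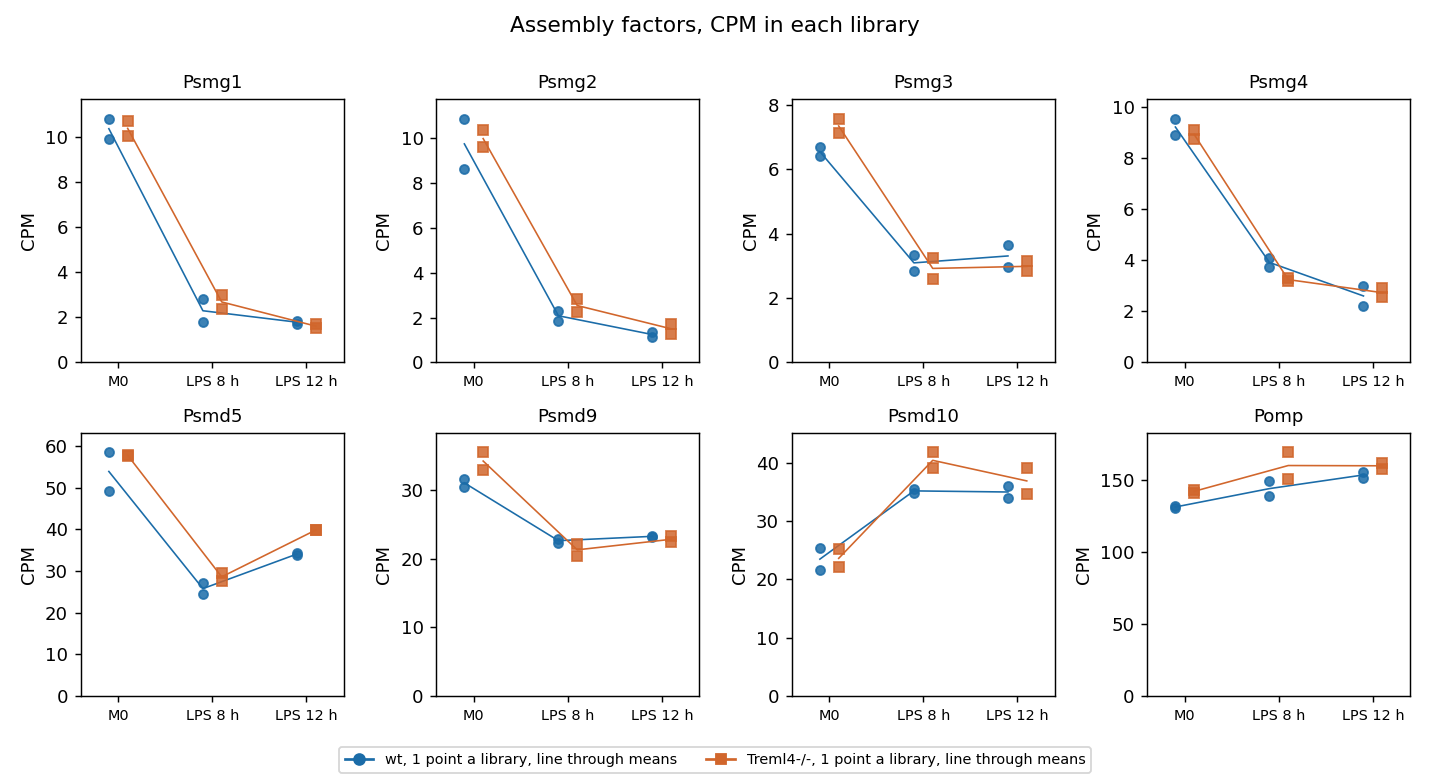
CPM (y axis, from 0) of the 7 assembly factors and of Pomp at M0 and after LPS (x axis), 1 point per library, with lines through the means of each genotype. Psmg1 and Psmg2 go from about 10 CPM at M0 to under 2 CPM at 12 h, while Psmd10 is higher in every LPS library; Psmd9 is lower on this scale and rose with median-of-ratios scaling, as Psmd5 did at 12 h.

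A pair of members carried the symbol without the role. Psme2b, a near-copy of Psme2 on chromosome 11, had 14.1 to 16.6 CPM at M0 and 64.3 to 73.4 CPM at 12 h, with a log2 fold change of 2.07 ± 0.079; reads could have been split between it and Psme2, so its value is uncertain. Psmc3ip, a factor of homologous recombination, had 1.36 to 2.26 CPM at M0, 0.371 to 0.823 CPM at 8 h and 0.312 to 0.384 CPM at 12 h. It reached 1 CPM in the M0 libraries alone, through which it entered the test, so its values too are given as a description.

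Between 8 h and 12 h the changes were small. On CPM 11 members rose and 11 fell, beside 26.1% and 34.2% of all genes, and 17 rose and 11 fell with median-of-ratios scaling, beside 29.6% and 32.1%. The 12 h and 8 h libraries did not overlap for 10 members that were higher and 8 that were lower, as for 21.7% and 29.6% of all genes. Only Psmb6 passed the 1.4-fold minimum, as 13.5% of all genes did upward and 18.7% downward. It rose by 0.50 ± 0.067 on the log2 scale from 8 h to 12 h (adjusted p = 7.70e-05). Psmd5, Psme1, Psmc6, Psmd11 and Psmc1 rose from 8 h to 12 h by 0.31 to 0.43 on the log2 scale. Psmg2, Psmd6, Psmg1 and Psmg4 fell by 0.32 to 0.48. The members counted as falling include Psma8 and, with median-of-ratios scaling, Psmc3ip, and nothing is drawn from their calls. Of the 46 members, 18 rose at both times against M0 and 17 fell at both. Psmd6 was the 1 member with opposite calls, at 0.16 ± 0.070 at 8 h (adjusted p = 0.0443) and -0.21 ± 0.070 at 12 h (adjusted p = 0.0143) on CPM, and positive at both times with median-of-ratios scaling (0.95 and 0.62).

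The wider ubiquitin and proteasome system did not move as 1 block. Of all genes, 21.1% rose and 68.4% fell at 8 h on CPM, and 21.0% and 68.5% at 12 h. With median-of-ratios scaling 39.4% rose and 42.4% fell at 8 h, and 41.6% and 43.5% at 12 h. The lists are short, so their counts are given beside these shares as a description. Of 9 proteasome parts and helpers with other symbols, 1 rose and 5 fell at 8 h, and 3 rose and 5 fell at 12 h; the deubiquitinase Usp14 went lowest, with a log2 fold change of -1.61 ± 0.089 at 12 h. With median-of-ratios scaling 6 rose and 2 fell at 8 h, and 5 and 3 at 12 h, Usp14 still among the latter. None of 5 regulators of proteasome genes rose on CPM and 4 fell, at both times, where 3 rose and 1 fell at 8 h and 2 and 2 at 12 h on the other scale. Nfe2l1, the transcription factor that raises proteasome genes when the particle is blocked, had 246 to 268 CPM at M0, 162 to 185 CPM at 8 h and 248 to 294 CPM at 12 h. On CPM it fell at 8 h, to a log2 ratio of -0.55 ± 0.056 (adjusted p = 1.98e-06), although it was 0.25 with median-of-ratios scaling, and at 12 h it was 0.096 ± 0.056 on CPM (adjusted p = 0.126) but rose by 0.94 with median-of-ratios scaling. Ddi2, the protease that cleaves Nfe2l1, fell on both scales, at -1.90 ± 0.092 on CPM at 12 h.

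Among 14 genes of ubiquitin and its shuttles, 5 rose and 9 fell at 8 h, and 5 rose and 7 fell at 12 h. The shares of all genes were 21.1% and 68.4% at 8 h and 21.0% and 68.5% at 12 h on CPM. Ubb, which encodes ubiquitin as a chain of repeats, rose by 1.05 ± 0.057 at 12 h, while the shuttles Ubqln4 and Ubqln2 fell on both scales, at -2.41 ± 0.11 and -1.98 ± 0.079 on CPM. With median-of-ratios scaling 8 of the 14 rose and 4 fell at 8 h, and 9 and 4 at 12 h. Of all genes 39.4% and 42.4% did at 8 h, and 41.6% and 43.5% at 12 h. Of 5 genes of peptide loading, which take up what the immunoproteasome makes, 5 rose at 8 h and 4 at 12 h, led by the transporter Tap1 with a log2 fold change of 3.66 ± 0.058.

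The LPS changes were also read within each genotype. In wt cells 21 members rose and 16 fell at 8 h (18.9% and 66.8% of all genes), and in Treml4-/- cells 17 rose and 20 fell (20.2% and 64.0%). Of the 37 members called in each genotype at 8 h, 32 were called in both, all in the same direction. At 12 h 18 rose and 15 fell in wt (19.2% and 66.0% of all genes). In Treml4-/- cells 15 rose and 17 fell (19.2% and 65.5%), and 28 members were called in both and in the same direction. The share of all genes called in both genotypes was not counted. Since most of all genes were called in each genotype, the overlap is not read as particular to these members.

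Between wt and Treml4-/- cells 0 members passed the test at M0, 8 h or 12 h, by limma at an adjusted p under 0.05 or by voom on the recovered reads, and by limma 0 members passed it for a difference between the genotypes in the LPS response. Of all genes, 12, 11 and 16 were called in the genotype contrasts (0.0414% up and 0.0579% down in wt at M0, 0.0331% and 0.0579% at 8 h, 0.0496% and 0.0827% at 12 h). At an unadjusted p under 0.05 there were 1, 7 and 1 members, beside 3.35%, 21% and 7.55% of all genes, and 1 member for each response, beside 6.67% at 8 h and 3.82% at 12 h; 0% of all genes were called with a larger response in wt and 0.00827% with a smaller one, at either time. Psma8 is in the unadjusted counts at M0, at 8 h and for the response at 12 h, and nothing is drawn from it. The median standard error of a member's genotype difference was 0.0988 on the log2 scale, with a range from 0.0729 to 0.202. With 2 libraries a group, differences well above their error also went uncalled. At 8 h Psmc6 was at -0.50 ± 0.20 and Psme1 at 0.24 ± 0.083 (adjusted p = 0.208 and 0.176, limma). True differences of such sizes could thus have been missed.

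At M0, 45 of the 46 members had a lower mean in wt than in Treml4-/- libraries, as did 60.2% of all genes, and 39 did with median-of-ratios scaling. The median difference of the members was -0.099, beside -0.029 for all genes. Both wt libraries were below both Treml4-/- libraries for 21 members, where 18.0% of all genes were, and above them for 0, where 10.8% were. At 8 h 21 of 46 were lower in wt, beside 61.9% of all genes, and at 12 h 26, beside 64.4%. With median-of-ratios scaling 15 and 12 members were lower. The share of all genes that were lower on that scale was not counted at any time. The median difference of all genes on it was 0.0043 at M0, 0.027 at 8 h and 0.021 at 12 h. Both wt libraries were above both Treml4-/- libraries for 8 members at 8 h and below for 14 (18.0% and 33.9% of all genes), and for 9 and 16 at 12 h (12.3% and 30.8%).

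The member with the lowest p at M0, at 8 h and for the response at 12 h was Psma8, which was tested only through its high Treml4-/- M0 libraries, so nothing is drawn from these p-values. Both wt libraries were below both Treml4-/- libraries in CPM at each time, as the values given above show. The log2 difference at M0 was -0.60 with the pseudocount of 1 CPM and -1.05 with 0.1 CPM, and at 8 h -0.42 and -1.09, since the pseudocount sets the size at such levels. Psme1 had the lowest p for the response at 8 h: its rise was larger in wt by 0.29 ± 0.12 (adjusted p = 0.729), with 390 and 413 CPM in wt against 353 and 326 CPM in Treml4-/- libraries. Psmd5 had the lowest p at 12 h, at -0.22 ± 0.099 (adjusted p = 0.657).

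A single library decided 2 calls. Without the first wt M0 library Psmd14 was called lower in wt at M0, at -0.48 (adjusted p = 0.0387 by limma), and without the first Treml4-/- library at 8 h Psmc6 was called lower in wt, at -0.85 (adjusted p = 0.0275 by limma). With 1 library left in an arm, that library is assumed to vary like the other groups. With all libraries, Psmd14 was at -0.23 ± 0.14 and Psmc6 at -0.50 ± 0.20, with 30.1 and 33.7 CPM in wt and 35.5 and 58.1 CPM in Treml4-/- libraries.

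**Figure D5:**
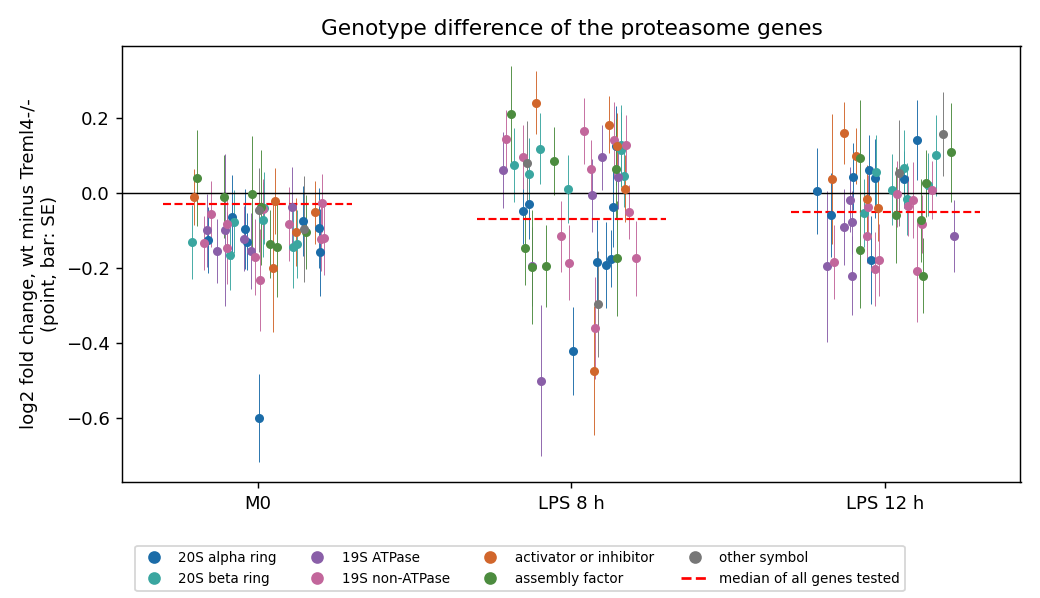
Log2 difference wt minus Treml4-/- (y axis; bars are standard errors) of the 46 tested members at M0, 8 h and 12 h, spread sideways for sight and coloured by role; dashed lines are the medians of all 12086 genes. No member passed the adjusted threshold. At M0 nearly all points are below 0, with Psma8 lowest, and 39 of the 46 are below 0 with median-of-ratios scaling.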

How the data were processed

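RNA was measured as stranded poly(A) RNA-seq in 12 BMDM libraries, 2 per genotype and time. Per the labels the authors aligned the reads with STAR to mm10, and their methods name the CCBR RNAseq workflow, which counts with Subread, and gene lists from DESeq2 p-values; the annotation and the counting strand are not given in the sources used here. The authors deposited log2 CPM with a prior of 0.25 reads at the mean library size. Taking the prior away gave whole reads for 100% of the values (within 0.01 read), and CPM was recomputed from them.

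The test took genes that reached 1 CPM in 2 or more libraries, on log2(CPM + 1) with limma 3.58.1 (R 4.3.3; 1 mean per condition, all 12 libraries, trend, Benjamini-Hochberg over all genes); "rose" and "fell" mean an adjusted p under 0.05. LPS contrasts are the mean of both genotypes. Standard errors are limma's. On simulated data for 8 h against M0 over 11615 genes, the test recovered 40 of 50 genes changed 1.4-fold and 50 of 50 at each of 2-fold, 4-fold and 8-fold, and called 9 of 11415 unchanged genes. The simulation started from M0 levels and changed few genes, as many up as down, with the same spread for every gene. It held no shift of the median gene, so its rate of false calls does not carry over to the LPS contrasts. Replicates differed beyond counting noise (chi-square per degree of freedom 12.05 or more). Positions and exon lengths are from GENCODE M21 (GRCm38), chosen here.

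Members, lists and motifs were chosen with earlier results of these data known. Named with values in each library were the catalytic subunits, the Psme genes and Psmf1, the extremes of each role at 12 h, and the member with the lowest p in each genotype contrast; any other name was picked with its values in view. The settings tried were a pseudocount of 0.1 CPM, the deposited log2 values, no filter or 5 CPM, other scalings, quantile normalization, no trend, the libraries of a comparison only, replicate blocks, each library left out, and voom on the recovered reads, chosen after seeing the data.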

Additional observations from a re-analysis of the deposited data

How the results depend on the processing

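Scaling was the choice that mattered most. With median-of-ratios and TMM scaling, 38 and 38 members rose at 8 h (21 on CPM) and 7 and 7 fell (19), 39 and 39 rose at 12 h (19) and 6 and 6 fell (18), and 17 and 20 rose between 8 h and 12 h (11); members' median changes were 0.71 and 0.65 at 8 h (-0.085), 0.88 and 0.88 at 12 h (0.034), 0.13 by TMM between 8 h and 12 h (0.030), 0.15 by median of ratios for genotype at 8 h (0.027), and 0.071 and 0.047 at 12 h (-0.017). Quantile normalization gave medians of 0.19 and 0.28, 9 members falling at 12 h and 18 rising from 8 h to 12 h, and a 5 CPM filter gave a median of 0.052 at 8 h. By the 1.4-fold minimum 9 rose and 10 fell at 8 h, 10 and 10 at 12 h, and 1 and 0 from 8 h to 12 h. Changes that turned positive with median of ratios and TMM were, at 8 h, Psmb5 (0.25 and 0.19), Psme3 (0.094 and 0.034), Psmc1 (0.74 and 0.68; quantile 0.030; -0.11 to 0.0063 leaving out 1 library, positive without the first wt M0 or second wt 8 h library), Psmc3 (0.41 and 0.35), Psmd2 (0.37 and 0.31), Psmb1 (0.51 and 0.45) and Nfe2l1 (0.25 and 0.19), and at 12 h Psmb5 (0.46 and 0.46), Psmc3 (0.29 and 0.29), Psmd2 (0.62 and 0.63) and Psmb1 (0.29 and 0.29). With quantile normalization, of the members that fell on CPM 13 of 19 were still called falling at 8 h and 9 of 18 at 12 h, among them Psmb1, Psmc3, Psmd2 and Psme3 at both times and Psmb5 at 8 h; 1 and 4 turned positive. The genotype difference of the Psma8 response at 12 h turned negative with the deposited log2 values (-0.19) and voom (-0.13); it rests on few reads. The shift of the median gene is the construction of these scalings, and the other causes were not tested.

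Leaving out 1 library gave 20 to 22 members rising and 19 to 22 falling at 8 h, 19 rising and 16 to 19 falling at 12 h, 8 to 13 rising and 9 to 13 falling from 8 h to 12 h, and 0 to 1 differing between genotypes at M0 and at 8 h. Libraries with the same replicate number deviated together in only some pairs of conditions (correlations of 0.46 to -0.27), so the numbers were not taken as pairs; with the replicate number as a block 22 members rose and 19 fell at 8 h and 19 and 18 at 12 h, within genotype the same. With crossed numbers, 0 members differed at M0, and 19 rose and 18 fell at 12 h. Fits of the recovered reads with the count models of the authors' workflow, planned as alternatives, were not run, because the deposited unit is log2; voom changed no count of members by over 1.5 times. Depth limits Psma8, Psmc3ip and Psmb11, and 2 libraries a group limit the genotype contrasts.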

Other observations

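Per length, subunits of a ring did not have equal RNA. At M0 the mean level of the 7 tested beta ring genes went from 30.3 RPKM for Psmb1 to 135.8 RPKM for Psmb5, a 4.48-fold range, and at 12 h from 20.6 RPKM for Psmb1 to 153 RPKM for Psmb6, a 7.45-fold range. Among the 19S ATPases Psmc6 was lowest and Psmc1 highest at each time, at 12.6 and 76.5 RPKM at M0 and 14.7 and 92.0 RPKM at 12 h. Psma8 had 0.482 RPKM at M0 where Psma6 had 77.6 RPKM. The cap gene Psme2 went from 92.9 RPKM at M0 to 415 RPKM at 12 h, above any subunit of the core. These levels depend on the exon lengths of the annotation.

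Other motifs were searched in the same promoter windows. The interferon-stimulated response element core was in 5 of the 42 windows of members (11.9%), those of Psmb3, Psmd4, Psmd9, Psme1 and Psmg4, and in 3.443% of all windows. Of these 5, Psme1 rose and the other 4 fell on CPM at both times, where Psmb3, Psmd4 and Psmd9 rose at both times with median-of-ratios scaling. The gamma-activated site TTCNNNGAA was in 2 windows of members (4.762%; 8.298% of all windows), the NF-kB-like motif GGGANNNCC in 9 (21.43%; 18.56%) and the CCAAT box CCAAT in 14 (33.33%; 37.41%). Of the 6 members with the antioxidant response core, Psmb6 and Psme4 rose at 12 h, Psmb5 and Psmd9 fell on CPM but rose with median-of-ratios scaling, and Psmc6 and Psmd12 were not past the threshold at 12 h on CPM but rose with median-of-ratios scaling (1.05 and 0.86). At 8 h Psmd12 rose on CPM as well.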
